A study of Mus musculus with 2 samples.

Results

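Nitric oxide and cGMP signalling was followed through 8 genes that were fixed by name: the 3 nitric oxide synthases Nos1, Nos2 and Nos3, the guanylate cyclase subunits Gucy1a3 and Gucy1b3, the kinase Prkg1, and the enzymes Ddah1 and Ddah2. All 8 were found on 1 row each among the 22882 gene symbols measured. Heart RNA came from mice 23 days old on a C57BL6/J background, of mixed sex and without treatment. The control hearts were Med1fl/fl, in which both Med1 alleles carry loxP sites and remain functional, and the csMed1-/- hearts carried the same alleles together with a Cre transgene driven by the α-myosin heavy chain promoter, which acts in cardiomyocytes from late gestation. Med1 encodes a subunit of Mediator, the complex that links transcription factors to RNA polymerase II. The other cells of the heart keep Med1 in this model. RNA of 5 hearts was pooled for each genotype and 1 library was made from each pool, so there are no replicates, no test between the genotypes was possible, and each difference below compares 2 libraries.

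Nitric oxide is made from arginine by the synthases, diffuses into neighbouring cells and binds the heme of soluble guanylate cyclase, which then forms cGMP. The cyclase works as a pair of an α and a β subunit, here Gucy1a3 and Gucy1b3. cGMP activates the cGMP-dependent kinase of Prkg1, which lowers calcium and relaxes smooth muscle and also phosphorylates proteins of the cardiomyocyte. Methylated arginines inhibit the synthases, and Ddah1 and Ddah2 encode enzymes of the family that clears them. In the heart Nos3 is chiefly endothelial, Nos1 is found in cardiomyocytes and nerves, and Nos2 is the form induced in inflammation.

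Nos2 was the member with the largest difference among those compared. It stood at 6.71 FPKM in the Med1fl/fl library and at 0.944 FPKM in the csMed1-/- library, 7.10-fold lower. Nos3 and both Ddah genes were higher in csMed1-/- heart by less than 2-fold, and both cyclase subunits were lower by less than 2-fold. Prkg1 was higher in the csMed1-/- library but lay under 1 FPKM in both, and Nos1 was hardly detected.

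Expression is given in FPKM, which divides the fragments of a gene by its transcript length and by the library size and so allows levels of different genes to be set side by side. A gene was compared, as the ratio of csMed1-/- to Med1fl/fl, if neither value was 0 and the higher one was at least 1 FPKM, and 2-fold was the threshold. This left 10489 genes and 6 of the 8 members, since Prkg1 lay below the minimum and Nos1 was listed at 0 in csMed1-/- heart. Of the 6 members, 1 was lower past 2-fold, whereas 18.0% of all genes compared were. None was higher past 2-fold, against 13.6% of all genes compared. The members' median log2 ratio was -0.13, beside -0.07 over all genes compared. Among the 6, Nos2 alone lay past the threshold, so the members' count is close to what the background gives.

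The libraries summed to between 716365 and 780366 FPKM, and 9742 to 9965 genes reached 1 FPKM in each. The deposited values hold no read counts. Low values of long genes with 1 annotated transcript tended to fall on steps. From these the libraries were estimated at about 63500000 reads for Med1fl/fl and 85800000 for csMed1-/-. On a score that is 1 for exact steps, Med1fl/fl reached 0.366 and csMed1-/- 0.216, so the estimate is rough. Read numbers given here for single genes come from this estimate and are approximate. Med1 itself was at 3.38 FPKM in the Med1fl/fl library and 0.412 FPKM in the csMed1-/- library, a ratio of 0.122. A listed value of 0 need not mean absence, because 6 genes above 100 FPKM in the csMed1-/- library were listed at 0 in the other, and 6 the other way round.

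**Figure D1:**
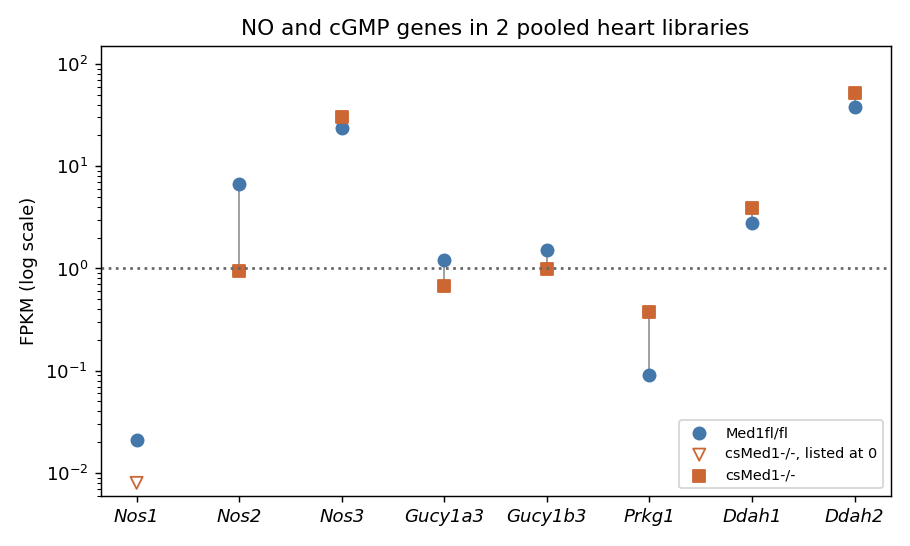
FPKM of each gene (log axis) in the pooled Med1fl/fl library (circles) and the pooled csMed1-/- library (squares); the open triangle is a value listed at 0, drawn at the foot of the axis, and the dotted line is 1 FPKM. Nos2 crosses from 6.71 to 0.944 FPKM, while Nos3 and Ddah2 are the highest members in both libraries.

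Among the synthases, Nos2 lies on chromosome 11 (chr11:78920787-78960254, plus strand, GRCm38), with 27 exons in its longest RefSeq transcript and no other annotated gene over it. The 6.71 FPKM of the control library correspond to about 1700 reads and the 0.944 FPKM of the csMed1-/- library to about 324 reads. By this rough estimate both values rest on many reads. Its log2 ratio of -2.83 ranked 233 from the lowest among the 10489 genes compared. Nos2 also passed 4-fold, which 5.14% of all genes compared did in the lower direction. Adding 1 FPKM to both values, which damps low values, left a log2 ratio of -1.99.

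Nos3, the endothelial synthase (chr5:24364810-24384474, plus strand), was the most abundant synthase in both libraries. It had 23.6 FPKM in Med1fl/fl heart and 30.4 FPKM in csMed1-/- heart, which makes a ratio of 1.29 from about 5898 and 10252 reads. That ratio lay above 68.6% of all genes compared and within 2-fold. The last 294 bases of the Nos3 gene overlap Atg9b on the opposite strand, a gene at 1.37 FPKM in the control and 1.31 FPKM in the csMed1-/- library, and an antisense transcript, Gm15587, lies across much of it. The libraries were directional, but whether counting used strand is not given in the sources used here.

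Nos1, the neuronal synthase (chr5:117781032-117958840, plus strand), had 0.0212 FPKM in the Med1fl/fl library, about 13 reads over a transcript of 10123 bases, and was listed at 0 in the csMed1-/- library. No ratio was formed from these values. A difference in Nos1 could not be read at this level.

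The summed level of the 3 synthases was 30.3 FPKM in Med1fl/fl and 31.3 FPKM in csMed1-/- heart (ratio 1.03), although its makeup differed. Nos2 supplied 22.1% of the sum in the control and 3.02% in the csMed1-/- library. Nos3 supplied 77.8% and 97.0%. Per kilobase, Nos3 exceeded Nos2 by 3.52 times in the Med1fl/fl library and by 32.2 times in the csMed1-/- library. The sums were thus close while the shares of Nos2 and Nos3 were not.

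**Figure D2:**
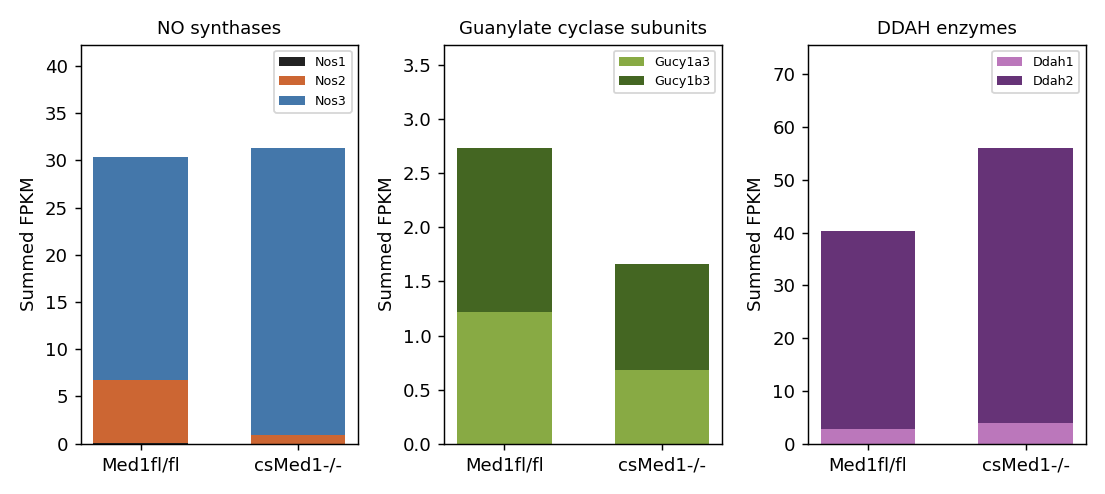
Summed FPKM of the synthases, the cyclase subunits and the Ddah genes in each pooled library, each bar divided by gene and each panel on its own scale from 0. The synthase sums are 30.3 and 31.3 FPKM with a smaller Nos2 part in csMed1-/- heart, the cyclase sum is lower, and the Ddah sum is higher with an almost constant split.

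Gucy1a3 and Gucy1b3, named Gucy1a1 and Gucy1b1 in current annotation, are neighbours on the minus strand of chromosome 3, at chr3:82092427-82145789 and chr3:82032006-82074689 (GRCm38), with 17737 bases between them. Both were at low levels. Gucy1a3, the α subunit, had 1.22 FPKM in the Med1fl/fl library and 0.681 FPKM in the csMed1-/- library, a ratio of 0.559 from about 337 and 254 reads. Gucy1b3, the heme-binding β subunit, had 1.52 and 0.982 FPKM, a ratio of 0.647 from about 291 and 255 reads. Neither passed 2-fold. Their log2 ratios of -0.84 and -0.63 differed by 0.21, and Gucy1b3 was the higher subunit in both libraries, with the α to β ratio of levels at 0.803 in the control and 0.693 in csMed1-/- heart. The estimated reads of both subunits were lower in the library estimated as deeper, but they are computed from the same FPKM and are no separate evidence.

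Ddah1 (chr3:145758675-145894277, plus strand) and Ddah2 (chr17:35059035-35062095, plus strand) were the closest pair. Ddah1 was at 2.76 FPKM in the Med1fl/fl library and 3.88 FPKM in the csMed1-/- library, a ratio of 1.41. Ddah2 was at 37.5 and 52.1 FPKM, a ratio of 1.39, and was the most abundant of the 8 genes in both libraries. Their log2 ratios, 0.49 and 0.47, differed by 0.02, and Ddah2 held 93.1% of the summed Ddah level in each library. The summed Ddah level stood at 1.33 times the summed synthase level in Med1fl/fl heart and at 1.79 times in csMed1-/- heart. Both genes stayed within 2-fold, with 73.3% of all genes compared having lower ratios than Ddah1 and 72.7% lower ratios than Ddah2.

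Prkg1, the type I cGMP-dependent kinase, spans over a megabase of the minus strand of chromosome 19 (chr19:30564489-31765033). It had 0.0912 FPKM in Med1fl/fl and 0.379 FPKM in csMed1-/- heart. The ratio of 4.15 was left out of the counts above because both values lie below 1 FPKM. These levels correspond to about 39 and 220 reads if all came from the longer RefSeq transcript of 6976 bases, and to about 15 and 86 if all came from the shorter one of 2841 bases. Cstf2t, a gene without introns on the opposite strand inside Prkg1, had 6.78 FPKM in the control and 4.22 FPKM in the csMed1-/- library and was thus lower where Prkg1 was higher. With the minimum of 1 FPKM removed, Prkg1 was the single member higher past 2-fold. Its log2 ratio of 2.05 shrank to 1.32 when 0.1 FPKM was added to both values and to 0.34 when 1 FPKM was added.

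The sequence before the start site is shown for both Ddah genes, whose ratios lay close together, and for the cyclase subunit Gucy1b3. RefSeq windows (GRCm38.p6) were matched for 6 of the 8 members, and the bases of 3 that lie outside the annotated gene are printed 5′ to 3′ on the gene's strand. Windows with too few bases outside the annotated gene, by the wider of its RefSeq and GENCODE bounds, are not printed. This left out the windows of Nos1 and Prkg1. It also left out both windows of Gucy1a3, which overlap its annotated gene in part or whole, so the cyclase pair is not compared here. Capitals mark the GC box GGGCGG or its complement CCGCCC. The windows are chr3:82074712-82074961 (minus strand) for Gucy1b3, chr3:145758442-145758674 (plus strand) for Ddah1 and chr17:35058785-35059034 (plus strand) for Ddah2.
Gucy1b3: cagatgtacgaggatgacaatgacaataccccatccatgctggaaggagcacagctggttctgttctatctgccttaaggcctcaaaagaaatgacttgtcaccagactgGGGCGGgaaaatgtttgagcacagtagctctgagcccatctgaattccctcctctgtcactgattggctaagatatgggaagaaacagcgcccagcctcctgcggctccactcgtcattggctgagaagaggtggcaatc
Ddah1: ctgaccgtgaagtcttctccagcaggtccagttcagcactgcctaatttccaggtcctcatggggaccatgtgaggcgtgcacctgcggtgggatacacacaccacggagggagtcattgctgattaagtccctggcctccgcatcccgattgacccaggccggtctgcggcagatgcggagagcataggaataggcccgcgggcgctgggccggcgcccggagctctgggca
Ddah2: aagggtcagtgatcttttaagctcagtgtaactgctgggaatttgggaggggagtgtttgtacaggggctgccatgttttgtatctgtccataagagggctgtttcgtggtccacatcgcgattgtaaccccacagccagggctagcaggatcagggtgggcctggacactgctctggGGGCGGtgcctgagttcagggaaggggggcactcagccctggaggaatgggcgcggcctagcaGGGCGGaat
The GC box was found once before Gucy1b3, at 2 places before Ddah2 and nowhere in the Ddah1 window, and 32.7% of all 32851 RefSeq windows of 250 bases hold it on either strand. The nuclear receptor half-site AGGTCA or TGACCT was in none of the 3 and in 14.0% of all windows. TATAAA or TTTATA, found in 12.4% of all windows, and the palindromic E-box CACGTG, found in 6.02%, were also absent from the 3. The Ddah1 and Ddah2 windows differed in CpG number, with 17 and 7 in their full 250 bases, although the ratios of both genes were close.

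Other genes of the pathway were read from 6 lists drawn up by function, with earlier results of these data known. The lists hold genes that the authors had reported as lower, such as Pde1c and Pln. A share above that of all genes compared may therefore reflect this choice, which was not tested. Of 65 listed genes 47 were compared, and 14 of these (29.8%) were lower past 2-fold, whereas 18.0% of all genes compared were. A further 7 (14.9%) were higher past 2-fold, beside 13.6% of all genes compared. The median log2 ratio of the 47 was -0.18. The lists differed from each other, and targets of the cGMP-dependent kinase made up 7 of the 14 lower genes.

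Cofactor and substrate supply was divided. Synthases need tetrahydrobiopterin, which is made by Gch1, Pts and Spr and recycled by Qdpr. Pts was lower, at 13.7 FPKM in Med1fl/fl and 3.68 FPKM in csMed1-/- heart. Also lower were Qdpr at 58.2 and 27.1 FPKM and Gchfr, the feedback regulator of Gch1, at 6.68 and 1.95 FPKM. Gch1 at 4.46 and 6.37 FPKM and Spr at 109 and 142 FPKM were higher within 2-fold. Ass1 and Asl, which rebuild arginine from citrulline, were just past 2-fold higher, with ratios of 2.04 and 2.05. In all, 3 of 8 genes compared were lower and 2 higher past 2-fold, beside 18.0% and 13.6% of all genes compared.

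Among 12 compared genes for partners of the synthases and for methylarginine formation, 1 was lower and 2 were higher past 2-fold. Of all genes compared, 18.0% were lower and 13.6% higher. Cav1, whose product caveolin-1 binds and restrains the endothelial synthase, was at 71.9 FPKM in the control and 27.0 FPKM in the csMed1-/- library. Hsp90aa1, a chaperone that promotes synthase activity, was at 3.95 and 23.0 FPKM. Dynll1, a dynein light chain that binds the neuronal synthase, was at 12.7 and 32.2 FPKM. Hsp90ab1, another Hsp90 gene of this list, was far more abundant than Hsp90aa1, at 372 and 247 FPKM, and was lower within 2-fold. This list had the highest median log2 ratio of the 6, at 0.70.

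Of the other cyclases, only the natriuretic peptide receptors Npr1 and Npr2 were high enough to compare, and neither passed 2-fold. Npr2 stood at 26.5 and 39.1 FPKM, so that in both libraries it exceeded either soluble cyclase subunit by far. In the list for cGMP breakdown and export 9 genes were compared, and 2 were lower and 1 higher past 2-fold. Of all genes compared, 18.0% were lower and 13.6% higher. The 9 include Pde6d, at 39.6 and 26.4 FPKM, whose product does not itself break down or export cGMP. Pde1c, a calmodulin-dependent phosphodiesterase, was lower at 3.72 against 0.178 FPKM. Pde3a was also lower, with a ratio of 0.450, while Pde1b, a relative of Pde1c, was higher with a ratio of 2.37.

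Of 11 compared genes in the list for the cGMP-dependent kinase and its targets, 7 were lower and 1 was higher past 2-fold. The shares over all genes compared were 18.0% and 13.6%. All 11 are listed as targets, since Prkg2, the cGMP-dependent kinase gene of this list, was not compared. Pln, phospholamban, the brake on the calcium pump, was at 771 FPKM in Med1fl/fl and 56.2 FPKM in csMed1-/- heart. Tnni3, cardiac troponin I, was at 10283 and 1537 FPKM, and Rgs2, which curbs G protein signalling, at 8.88 and 1.27 FPKM. Gtf2i (ratio 0.235), Mrvi1 (0.403), Rgs4 (0.444) and Mylk (0.462) were also lower. Ppp1r12a, the targeting subunit of myosin phosphatase, was higher with a ratio of 2.69. Pln and Tnni3 are cardiomyocyte genes that the marker list below also holds.

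For removal of nitric oxide and nitrosothiols, 1 of 5 compared genes was lower and 1 higher past 2-fold. Of all genes compared, 18.0% were lower and 13.6% higher. Mb, the myoglobin gene of this list, was listed at 0 in the control and at 1040 FPKM in the csMed1-/- library. It was not compared. Adh5, which reduces S-nitrosoglutathione, had a ratio of 0.344, and Cyb5r3, a reductase for heme proteins, a ratio of 3.40. The pathway genes with log2 ratios nearest to that of Nos2 were Rgs2, 0.03 away at -2.80, and Tnni3, 0.09 away at -2.74. With 2 libraries, likeness of this kind is the likeness of 1 ratio.

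**Figure D3:**
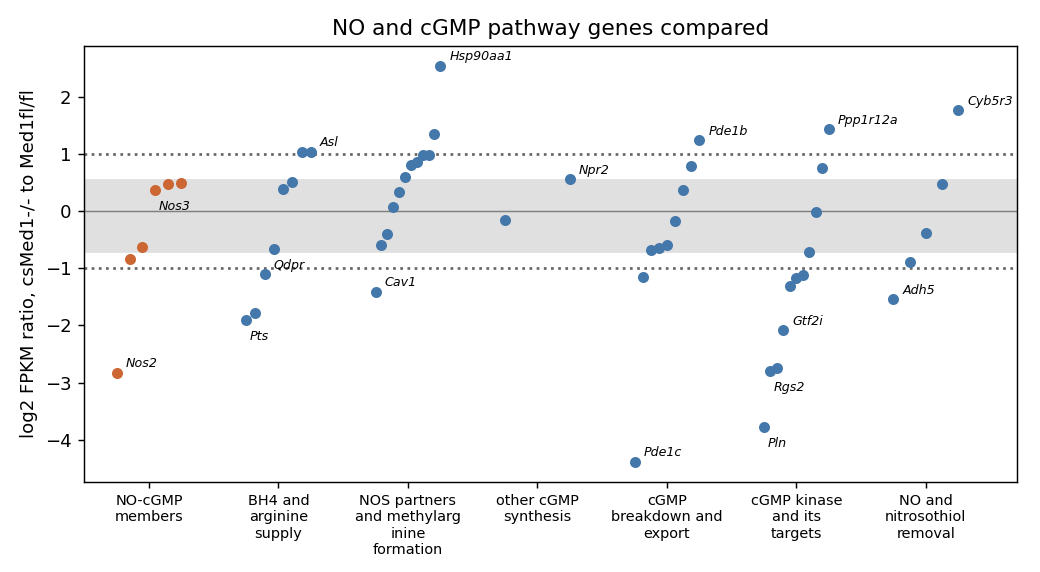
The log2 ratio of FPKM in csMed1-/- to Med1fl/fl heart for the 6 members compared (orange) and 47 other pathway genes (blue) in 6 lists, sorted within each list; grey spans the quartiles of all 10489 genes compared and dotted lines mark 2-fold. Nos2 lies below the dotted line at -2.83, near Rgs2, while the other 5 members lie between the dotted lines.

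In whole heart, fewer cells of a type and less RNA per cell cannot be told apart, so markers of the cell types that could carry these genes were read in the same way. Of 12 endothelial markers, all above 0 in both libraries, 3 were lower and 2 higher past 2-fold, beside 18.0% and 13.6% of all genes compared. The markers ran from Tek at a log2 ratio of -1.90 to Cldn5 at 3.11. Their summed level was 874 FPKM in Med1fl/fl and 1315 FPKM in csMed1-/- heart, but without Cldn5 it was 817 and 825 FPKM. Nos3 lay inside this range, with 8 markers below it and 4 above. Set relative to the endothelial sum its log2 ratio became -0.23, and relative to the sum without Cldn5 it was 0.35, so that its direction depended on this 1 marker.

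Nos2, known from activated macrophages, was set beside macrophage markers. Of 10 such markers 8 were compared, and none was lower past 2-fold, beside 18.0% of all genes compared. Fcgr1 was lowest at a log2 ratio of -0.92, while Cd14 was highest at 1.29. Their summed level was 335 FPKM in Med1fl/fl and 384 FPKM in csMed1-/- heart. Ptprc, which marks leukocytes in general, was at or below 0.0403 FPKM in both libraries. All 12 endothelial, 6 smooth muscle, 5 pericyte and 8 fibroblast markers compared had higher log2 ratios than Nos2 as well.

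Nos2 lay inside the range of the cardiomyocyte markers. Of 8 compared, 6 were lower past 2-fold, beside 18.0% of all genes compared. The log2 ratios ran from -3.78 (Pln) to -0.52 (Ttn) with 2 below that of Nos2. The 9 markers analysed summed to 56496 FPKM in Med1fl/fl and 30601 FPKM in csMed1-/- heart. This sum holds Actc1, which was listed at 0 in the control library and was not compared, and without it the csMed1-/- sum was 21413 FPKM, a ratio of 0.379 in place of 0.542. All 8 lay below Nos3, Ddah1 and Ddah2. The part of cell type markers in the difference of Nos2 was not tested.

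For the cyclase subunits and Prkg1, smooth muscle and pericyte markers matter, since these cells respond to nitric oxide. Of 6 smooth muscle markers compared, 3 were lower and 2 higher past 2-fold, beside 18.0% and 13.6% of all genes compared. They ran from Smtn at -1.53 to Cnn1 at 7.17, with 4 below a log2 ratio of 0, 2 above it and a median of -0.96. Each cyclase subunit had 4 of these markers below it and 2 above. The smooth muscle sum was 733 FPKM in the control and 1070 FPKM in the csMed1-/- library. Without Cnn1 it was 729 and 448 FPKM, so that the direction of the sum turned on this marker. The 5 pericyte markers summed to 139 and 138 FPKM, from Kcnj8 at -0.79 to Cspg4 at 1.14, and all 5 had higher log2 ratios than Gucy1a3. Fibroblast markers, with 4 of 8 below a log2 ratio of 0, ran from Dpt at -1.66 to Postn at 4.13. They summed to 449 and 892 FPKM, and without Col1a1 to 319 and 390 FPKM. Of the glial and neuronal markers, 2 could be compared, Sox10 at a log2 ratio of -0.69 and Dbh at -5.84, and Nos2 lay between them. S100b lay below 1 FPKM, and Th was listed at 0 in the control library. Whether these markers account for any member was not tested.

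**Figure D4:**
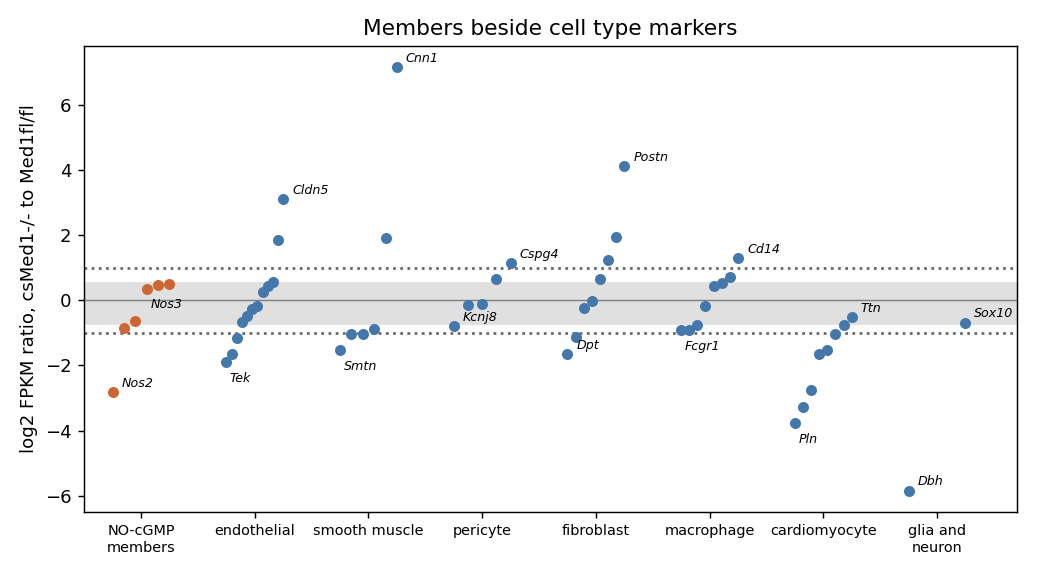
The log2 ratio of FPKM in csMed1-/- to Med1fl/fl heart for the 6 members compared (orange) and for markers of 7 cell types (blue), sorted within each list, with the lowest and highest marker named; grey spans the quartiles of all genes compared and dotted lines mark 2-fold. Nos2 lies below every macrophage and endothelial marker compared. It lies inside the range of the cardiomyocyte markers and between the 2 glial and neuronal markers compared.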

How the data were processed

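RNA of 5 Med1fl/fl and of 5 csMed1-/- hearts was pooled by genotype, enriched for polyadenylated RNA and sequenced as 1 directional single-end library each. The authors aligned the reads to mm10 with TopHat 2.0.8b and computed the deposited FPKM of known genes with Cufflinks and cuffdiff 2.1.1. The submitters' processing notes also name STAR, Bowtie2 and DESeq2 without a role, and the library scaling is not given in the sources used here. FPKM were used as deposited, summed over rows of 1 symbol, and compared as plain ratios past 2-fold where neither value was 0 and the higher one reached 1 FPKM. With 1 library a group no test was run.

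Reads were estimated as FPKM times transcript length less 199 bases, divided by the value of 1 read. That value was the best period among low values of 989 and 1009 genes with 1 GENCODE M21 transcript of over 2000 bases. By this rough estimate csMed1-/- was the deeper library by 1.35 times. The deposited FPKM give no other depth. Positions came from GENCODE M21 (GRCm38). Computation used Python 3.11.15, numpy 2.4.6, pandas 2.3.3 and matplotlib 3.10.9. The code was also run on simulated data with 4-fold changes and regular steps, a simpler setting than the deposited values.

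The members and lists were chosen with earlier results of these data known. Named were all members, Med1, pathway genes past 2-fold or else the most different one of a list, the lowest and highest marker of each list, and the 2 pathway genes nearest to a member past 2-fold. Genes overlapping a member, Gch1, Spr, Hsp90ab1, Npr1, Pde6d, Prkg2, Mb, Ptprc, Actc1, S100b, Th and Col1a1 were added after their values were seen. Alternatives were pseudocounts of 0.1 and 1 FPKM, other minimum levels, other scalings, a 4-fold threshold, the highest row of a symbol, and scaling to endothelial markers. The scaling without Cldn5 and the marker sums without Cldn5, Cnn1, Col1a1 or Actc1 were added after seeing the data.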

Additional observations from a re-analysis of the deposited data

How the results depend on the processing

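No paired analysis was possible because each genotype has 1 pooled library. The count of members lower past 2-fold, 1, became 0 with 1 FPKM required in both libraries or 10 FPKM in either, since both minimums removed Nos2. The count of members higher, 0, became 1 without a minimum, by the entry of Prkg1 at a log2 ratio of 2.05. Of the pathway genes, 7 of 32 compared were lower with 10 FPKM in either library, beside 885 of all 5426 genes compared. With a 4-fold threshold 5 of 47 were lower, beside 539 of 10489. Both counts stand in place of 14. Higher were 3 of 47 with a pseudocount of 1 FPKM, beside 1081 of 10489, and 1 of 47 with a 4-fold threshold, beside 453 of 10489. Both stand in place of 7. These counts differ by construction, through fewer genes compared, a higher threshold or the damping that a pseudocount brings to low values. Prkg1 ran from 0.34 with a pseudocount of 1 FPKM to 2.13 with centred ratios. Nos2 kept its direction in 7 alternatives, with log2 ratios from -2.87 to -1.99. Nos3 reversed in 1 of 11, to -0.23 relative to the summed endothelial markers. Gucy1a3, Gucy1b3, Ddah1 and Ddah2 kept their directions in each alternative that could be run for them. Scalings of whole libraries moved all genes by at most 0.07 on the log2 scale. The scaling to endothelial markers, applied to Nos3 alone, is not among these. Without replicates, the spread between hearts of a genotype is unknown.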
